A study of Mus musculus with 30 samples.

Results

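The genes described here are 31 genes of protein folding and stress in the endoplasmic reticulum (ER), the compartment where secreted and membrane proteins are folded. They were taken by name from the table of counts, where they are 31 of 55421 gene rows. They comprised 15 genes of the folding machinery, 6 of ER-associated degradation and translocation, 4 stress sensors or the transcription factors they act through, and 6 of the branch run by the factors ATF4 and CHOP. Tissue was mouse Achilles tendon or calcaneus, which is the bone of the heel on which this tendon inserts. All groups share the genotype given as Acta1,Ai32, where Acta1 is the gene of skeletal muscle actin and Ai32 an allele with a channelrhodopsin reporter. Going by the title of the series, the muscle that loads both tissues was activated with light. The 30 samples formed 10 groups of 3 in 2 tissues: stimulated at day 5, unstimulated at day 5, stimulated at day 12, unstimulated at day 12, and naive at day 0. The titles of all 12 stimulated samples also hold the word control; their group was taken from the stimulation treatment they are given. Nothing in the labels ties replicates to separate animals. The p-values therefore describe the variation among these samples, part or all of which may be technical.

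Cells answer an overload of unfolded protein in the ER with the unfolded protein response. The sensors ATF6, IRE1 (encoded by Ern1) and PERK (encoded by Eif2ak3) sit in the ER membrane. ATF6 and the spliced form of XBP1 raise genes of folding and of degradation, while PERK slows protein synthesis and leads through ATF4 to CHOP, amino acid supply and a feedback phosphatase subunit. Tendon and bone cells secrete large amounts of collagen, which is folded and hydroxylated in the ER. Counts per gene do not separate the spliced from the unspliced form of Xbp1 mRNA.

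The promoters of 28 of the 31 genes were found in the RefSeq table of GRCm38.p6 promoters, each 300 bases from 250 before the transcription start to 50 after it; Hyou1, Manf and Atf6 were not matched. The ER stress response element, CCAAT and CCACG with any 9 bases between them on either strand, is known as the site of ATF6 and XBP1 beside the CCAAT-binding factor NF-Y. It occurred in 9 of these 28 promoters (32.1%), against 0.119% of all 32851 promoters. By role it was found in 7 of 13 folding promoters, 0 of 6 promoters of the ATF4 and CHOP branch and 2 of the 9 others. Each of its parts alone was common: CCAAT stood in 78.6% of the members' promoters and 37.4% of all promoters, while CCACG stood in 78.6% of the members' promoters and 32.8% of all promoters. The members were chosen as genes of ER folding and stress, and the element is already known from that response. The shares found among the members, here and for the elements below, therefore describe this choice and are not a test. The 10 sites belong to 7 folding genes and the degradation genes Syvn1 and Derl3, and are given because the element was found in a larger share of the members' promoters than of all promoters; each is written on the strand of its gene, with the 2 parts in capitals, which read CGTGG and ATTGG where the element lies on the other strand.
Hspa5, chr2:34772020-34772048, plus strand, motif at -65 to -47: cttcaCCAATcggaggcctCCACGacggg
Hsp90b1, chr10:86705633-86705661, minus strand, motif at -212 to -194: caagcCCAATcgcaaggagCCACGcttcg
Hsp90b1, chr10:86705528-86705556, minus strand, motif at -107 to -89: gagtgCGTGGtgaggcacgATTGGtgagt
Pdia6, chr12:17266486-17266514, plus strand, motif at -98 to -80: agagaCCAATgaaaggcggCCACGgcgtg
Creld2, chr15:88819515-88819543, plus strand, motif at -126 to -108: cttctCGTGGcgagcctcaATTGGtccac
Calr, chr8:84847070-84847098, minus strand, motif at -162 to -144: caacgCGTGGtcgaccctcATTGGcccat
Canx, chr11:50325795-50325823, minus strand, motif at -145 to -127: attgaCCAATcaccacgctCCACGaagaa
Dnajc3, chr14:118937822-118937850, plus strand, motif at -105 to -87: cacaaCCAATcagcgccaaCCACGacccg
Syvn1, chr19:6046527-6046555, plus strand, motif at -44 to -26: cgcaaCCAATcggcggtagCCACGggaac
Derl3, chr10:75893237-75893265, plus strand, motif at -156 to -138: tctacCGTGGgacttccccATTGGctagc

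A second element, ATTGG and CCACG with any 1 base between them, occurred in 2 of the 28 promoters, those of Herpud1 and Dnajb11, against 0.0365% of all promoters. The composite element of ATF4 and C/EBP factors, TGATG and AA with any 1 base between them on either strand, occurred in 4 of the 28 (14.3%), against 3.97% of all promoters. These 4 were Asns, Chac1, Trib3 and Herpud1, that is 3 of the 6 genes of the ATF4 and CHOP branch and 0 of the 13 folding genes with a promoter. The core TGACGTG was found in 1 of the 28, that of Hspa5, against 2.01% of all promoters. Sites are shown for the degradation gene that holds both kinds and for 2 genes of the ATF4 branch, with the matched bases in capitals. A match is a sequence of letters and not a measured binding site, and the elements were searched independently, so that their matches may overlap.
Herpud1, chr8:94386372-94386392, plus strand, motif at -52 to -42: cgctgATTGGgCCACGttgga
Herpud1, chr8:94386312-94386329, plus strand, motif at -112 to -105: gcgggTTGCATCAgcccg
Asns, chr6:7693220-7693237, minus strand, motif at -23 to -16: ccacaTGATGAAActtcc
Chac1, chr2:119351044-119351061, plus strand, motif at -193 to -186: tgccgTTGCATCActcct

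Tendon libraries held 24.5 to 44.5 M gene counts, with a median of 30.3 M, and bone libraries 19.2 to 35.0 M, with a median of 23.4 M. Levels are in CPM, counts scaled to the library total with TMM factors within a tissue, unless stated otherwise. Tendon samples held the defining tendon transcripts: in naive tendon Tnmd was at 78, 149 and 154 CPM and Scx at 25.3, 26.3 and 40.7 CPM. They also held skeletal muscle RNA, with 11 muscle fibre genes taking 10.8 to 19.0% of counts across tendon libraries. Bone samples held Dmp1 at 298, 313 and 442 CPM and Sost at 23.6, 25.3 and 29.9 CPM in naive bone, markers of osteocytes, together with marrow transcripts. Replicates 1 and 2 of unstimulated bone at day 5 were much closer than other replicates: their chi-square per gene was 6.28, and it was 18.8 to 208 in 29 other pairs within groups. They were counted as 1 library, which leaves that group with n = 2. Some libraries stood apart from their groups on the main axis of variation of their tissue. They were naive bone replicate 3, unstimulated day 5 tendon replicate 3, which lay among naive tendon, and stimulated day 12 tendon replicate 1. By chi-square per gene, however, replicates 2 and 3 of stimulated day 12 tendon were the most distant pair of their group. Their value was 121, against 67.5 and 50.2 for their pairs with replicate 1. In whole tissue, fewer cells of a type and less RNA per cell cannot be told apart.

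In naive tissue the most abundant members, compared per kb of merged exons on a scale common to both tissues, were P4hb and Calr. P4hb, protein disulfide isomerase and the beta subunit of the collagen prolyl hydroxylases, averaged 135 ± 10.7 CPM per kb in naive tendon and 196 ± 10.2 CPM per kb in naive bone (SD, n = 3 each). Calr, the calcium-binding lectin chaperone calreticulin, averaged 100 ± 9.56 CPM per kb in tendon and 137 ± 6.15 in bone. Hspa5, the ER Hsp70 chaperone BiP that holds the sensors inactive, ranked 3 in tendon at 87.8 ± 16.4 CPM per kb and 4 in bone at 78.3 ± 3.65. In tendon the spread of Hspa5 reached that of Calr, so that these neighbours were not separated by the replicates. Hsp90b1, the ER Hsp90 GRP94, averaged 56.1 ± 3.77 CPM per kb in tendon and 68.7 ± 3.61 in bone, and Pdia3, the isomerase that works with the lectin chaperones, 47.7 ± 3.65 in tendon and 81.6 ± 5.65 in bone. Atf4, Hsp90b1 and Herpud1 in tendon, and Pdia3 and Hspa5 in bone, lay within their spreads of each other.

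The other folding genes were lower per length. Canx (calnexin), Pdia6, Dnajb11, Dnajb9 and Pdia4 lay between 17.7 and 38.7 CPM per kb in naive tendon and between 9.94 and 35.4 CPM per kb in naive bone. Dnajc3 (p58IPK), the nucleotide exchange factor Hyou1, Sdf2l1, Creld2 and the secreted Manf lay between 6.57 and 11.9 CPM per kb in tendon and between 8.47 and 18.4 in bone. Derl3, a derlin of ER-associated degradation, was the rarest member, with 0.318 ± 0.123 CPM per kb in tendon and 0.394 ± 0.128 in bone. Of the ATF4 and CHOP branch, Atf4 was abundant at 58.6 ± 2.33 CPM per kb in tendon and 59.3 ± 2.91 in bone, while the pseudokinase gene Trib3 was at 1.54 ± 0.403 in tendon and 1.15 ± 0.109 in bone. The sensor genes Ern1, Eif2ak3 and Atf6 ran from 3.11 to 7.61 CPM per kb in tendon and from 4.09 to 6.74 in bone, below the transcription factor gene Xbp1 at 28.1 ± 2.26 in tendon and 37.7 ± 1.88 in bone. The remaining degradation genes Herpud1, Sec61b, Sel1l, Syvn1 and Edem1 ran from 3.78 to 55.3 CPM per kb in tendon and from 8.61 to 37.7 in bone, and Ddit3, Ppp1r15a, Chac1 and Asns from 2.85 to 11.5 in tendon and from 2.73 to 20.4 in bone.

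**Figure D1:**
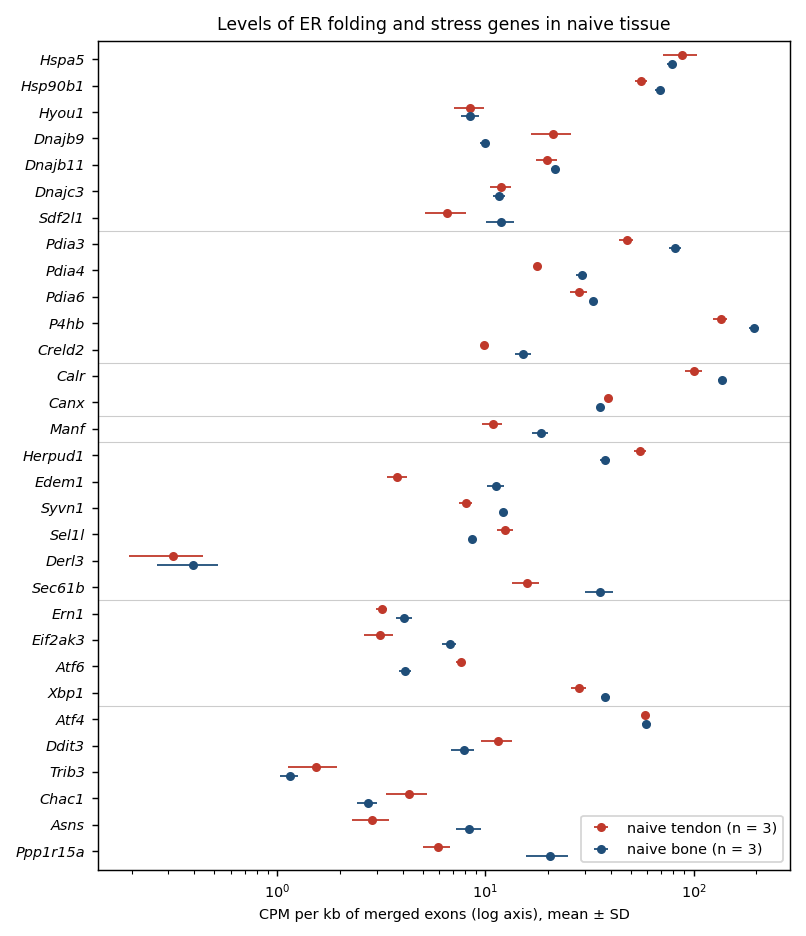
Mean ± SD level of each of the 31 genes in CPM per kb of merged exons (log axis) in naive tendon and naive bone, 3 libraries each, ordered by role from chaperones at the top to the ATF4 and CHOP branch at the bottom. P4hb and Calr are farthest right in both tissues and Derl3 farthest left; Edem1, Ppp1r15a and Asns show the widest gap towards bone, and Dnajb9 and Atf6 towards tendon.

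Naive tendon differed from naive bone in 21 of the 31 members, of which 5 were higher and 16 lower in tendon at an adjusted p under 0.05, the threshold for a call throughout. Across all genes 33.4% were called higher and 35.1% lower in tendon, so calls were common. The genes higher in tendon were Atf6, Sel1l, Dnajb9, Herpud1 and Ddit3. Atf6 had 66.3, 72 and 72.5 CPM in naive tendon and 35.2, 38.8 and 40.1 CPM in naive bone on the common scale (log2 fold change 0.88 ± 0.11, adjusted p = 2.95e-07). Dnajb9, the J-domain cochaperone ERdj4, had 42.7, 53.6 and 66 CPM in tendon and 23.9, 25.6 and 26.5 CPM in bone (log2 fold change 1.09 ± 0.17, adjusted p = 5.24e-06). Sel1l, the scaffold of the HRD1 ubiquitin ligase, was higher by 0.53 ± 0.07, adjusted p = 6.02e-07, Herpud1, a membrane component of the same complex, by 0.55 ± 0.12, adjusted p = 0.000359, and Ddit3, which encodes CHOP, by 0.54 ± 0.13, adjusted p = 0.00103 on the log2 scale. In each of these 5 genes all 3 tendon libraries lay above all 3 bone libraries. Such separation was common: of the 31 members 7 lay wholly above and 17 wholly below bone, and the share of all genes was not counted. It is therefore not read as particular to these genes.

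Among the 16 genes lower in tendon, the smallest adjusted p belonged to Edem1, a lectin that hands misfolded glycoproteins to degradation. Edem1 had 21.5, 25.1 and 26.6 CPM in naive tendon and 64.9, 76.5 and 76.8 CPM in naive bone (log2 fold change -1.58 ± 0.14, adjusted p = 8.05e-10). Ppp1r15a, the phosphatase subunit GADD34 that reverses the translation block, had 15.5, 16.2 and 20.2 CPM in tendon and 49.5, 54.7 and 75.3 CPM in bone (log2 fold change -1.79 ± 0.16, adjusted p = 1.19e-09). The groups did not overlap in either gene. Eif2ak3 (-1.12 ± 0.15, adjusted p = 4.91e-07), the asparagine synthetase gene Asns (-1.55 ± 0.22, adjusted p = 1.24e-06), the translocon subunit gene Sec61b (-1.17 ± 0.17, adjusted p = 2.47e-06) and Pdia3 (-0.77 ± 0.11, adjusted p = 2.5e-06) followed on the same scale. The remaining 10 were Syvn1, Pdia4, Creld2, P4hb, Manf, Xbp1, Calr, Ern1, Hsp90b1 and Sdf2l1, with log2 fold changes between -0.85 and -0.29. Hspa5, Hyou1, Dnajb11, Dnajc3, Pdia6, Canx, Derl3, Atf4, Trib3 and Chac1 were not called. The call of Hsp90b1 was lost without naive tendon replicate 2 (adjusted p = 0.0562), and that of Sdf2l1 without naive tendon replicate 3 or naive bone replicate 2 (adjusted p = 0.0757 and 0.0643). Muscle fibre genes took 10.8 to 14.6% of counts in naive tendon and 0.0147 to 1.65% in naive bone, and erythroid genes 0.0116 to 0.0178% in naive tendon and 1.74 to 4.99% in naive bone; their part in these differences was not tested.

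At day 12, stimulated tendon was compared with unstimulated tendon to ask what loading by stimulated muscle changed. Of the 31 members 1 was called, Ern1, which rose. Across all genes 0.286% were called higher and 0.0585% lower. DESeq2 also called 1 member, Ern1, and 2.16% of all genes. The log2 fold change was below 0 in all 15 folding genes, with a median of -0.31, but 0 of them passed the threshold. At an unadjusted p under 0.05 stood 14 of the 31 members, among them 9 of the 15 folding genes, against 11.2% of all genes. The 14 became 4 without unstimulated replicate 3, 4 without stimulated replicate 3 and 8 without unstimulated replicate 2, and otherwise stood between 10 and 18 without 1 library. Over all 17105 genes the median was 0.01 and 8346 lay below 0.

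Ern1 encodes IRE1 alpha, the kinase and endoribonuclease that splices Xbp1 mRNA. It had 34.6, 27.5 and 28.9 CPM in the stimulated libraries and 19.8, 19.6 and 22.6 CPM in the unstimulated libraries. All 3 stimulated libraries lay above all 3 unstimulated ones (log2 fold change 0.55 ± 0.10, adjusted p = 0.0376). The call depended on the libraries kept: it was lost without stimulated replicate 1 (adjusted p = 0.12), stimulated replicate 3 (0.0925), unstimulated replicate 1 (0.173), 2 (0.178) or 3 (0.117), and in a fit of these 6 libraries alone (0.252). Over the 11 alternatives its adjusted p ran from 0.000518 to 0.252 and its log2 fold change from 0.43 to 0.62. Xbp1, whose mRNA it splices, had 101, 70.0 and 93.2 CPM in stimulated and 77.7, 73.6 and 72.3 CPM in unstimulated libraries, which overlapped.

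Several chaperones were low in 2 of the 3 stimulated libraries. Hspa5 had 347, 194 and 185 CPM in stimulated replicates 1, 2 and 3, against 325, 351 and 354 CPM in the unstimulated ones. Hyou1 had 59.7, 36.6 and 41.3 CPM in stimulated and 57.2, 56.9 and 59.3 CPM in unstimulated libraries. Sdf2l1, a partner of the J-domain cochaperones, had 7.99, 3.81 and 2.61 CPM in stimulated and 8.42, 8.57 and 9.2 CPM in unstimulated libraries. In each of these genes stimulated replicates 2 and 3 lay below all unstimulated libraries. Replicate 1 lay within the unstimulated range in Hspa5, above it in Hyou1 and below it in Sdf2l1. Replicates 2 and 3 were also the low ones in Manf, a secreted protein that binds BiP, at 35.5, 19.4 and 19.5 CPM in stimulated and 36.5, 29 and 32.5 CPM in unstimulated libraries. Dnajb9 had 62.1, 37.5 and 39 CPM in stimulated and 57.5, 57.3 and 56.2 CPM in unstimulated libraries, and here too replicates 2 and 3 were low. Hsp90b1 had 161, 125 and 128 CPM in stimulated and 159, 157 and 177 CPM in unstimulated libraries. Dnajb11, a cochaperone of BiP, had 56.6, 48.9 and 44.5 CPM in stimulated and 58.7, 57.8 and 61.1 CPM in unstimulated libraries, and Dnajc3, which inhibits PERK, had 42, 39.6 and 29.9 CPM in stimulated and 45.4, 47.2 and 48 CPM in unstimulated libraries. Dnajb11 and Dnajc3 were lower in every stimulated library, and in Dnajc3 replicate 2 was close to replicate 1.

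Among the isomerases and lectins the smallest p was that of Pdia6. Pdia6 had 92.6, 67.4 and 63.5 CPM in stimulated and 96.4, 101 and 98.3 CPM in unstimulated libraries (log2 fold change -0.40 ± 0.12, adjusted p = 0.196), and all stimulated values were below all unstimulated ones. Creld2, a stress-induced protein with isomerase motifs, had 6.43, 7.04 and 6.97 CPM in stimulated and 8.49, 8.95 and 7.94 CPM in unstimulated libraries. Pdia4 had 19.6, 18.5 and 18.1 CPM in stimulated and 20.9, 22.6 and 25.9 CPM in unstimulated libraries. Both were lower in every stimulated library. Calr had 244, 187 and 162 CPM in stimulated and 256, 254 and 259.9 CPM in unstimulated libraries, without overlap. Canx had 127, 106 and 109 CPM in stimulated and 133, 127 and 138 CPM in unstimulated libraries. P4hb had 302, 261 and 272 CPM in stimulated and 297, 285 and 298 CPM in unstimulated libraries. Pdia3 had 69.6, 70.9 and 70.0 CPM in stimulated and 71.3, 68 and 83.2 CPM in unstimulated libraries. These 3 genes overlapped between the groups.

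Over the 15 folding genes, stimulated replicate 1 was the highest of the 3 stimulated libraries in 13 (86.7%), against 29.7% of all genes. Replicates 2 and 3 lay below all 3 unstimulated libraries in 14 of the 15 (93.3%), against 12.3% of all genes. These replicates were set apart because of their low values in the same genes, so these shares describe the pattern and do not test it. All 3 stimulated libraries lay below all 3 unstimulated ones in 7 of the 15 folding genes and 10 of the 31 members, against 7.03% of all genes. Without stimulated replicate 1 the median of the folding genes was -0.45 and 13 of 15 had an unadjusted p under 0.05, with 0 called. This replicate was the highest of its group in most of these genes, so leaving it out lowered their group means. The share of all genes under 0.05 in that fit was not counted. Without unstimulated replicate 3 the median was -0.32, 14 of 15 lay below 0 and 2 had an unadjusted p under 0.05. The number of folding genes under 0.05 was also 2 without stimulated replicate 3, 4 without stimulated replicate 2, and 6 without unstimulated replicate 1 or 2. The 15 folding genes together took 0.141, 0.112 and 0.111% of counts in stimulated replicates 1, 2 and 3 and 0.155, 0.146 and 0.162% in the unstimulated libraries.

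Stimulated replicate 1 also differed in cell markers. The 8 tendon fibroblast genes, all detected in every tendon library, took 0.226, 0.671 and 0.58% of counts in stimulated replicates 1, 2 and 3 and 0.310, 0.315 and 0.689% in the unstimulated libraries. The 11 muscle fibre genes took 18.4, 16.2 and 17.8% in the stimulated and 17.6, 19.0 and 18.2% in the unstimulated libraries. Both ranges overlapped between the groups, and the part of either cell type in the pattern was not tested. Genes of B and plasma cells, which are rich in ER, were near 0, with 0.000237 to 0.0005% of counts in stimulated and 0.000469 to 0.000557% in unstimulated libraries.

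**Figure D2:**
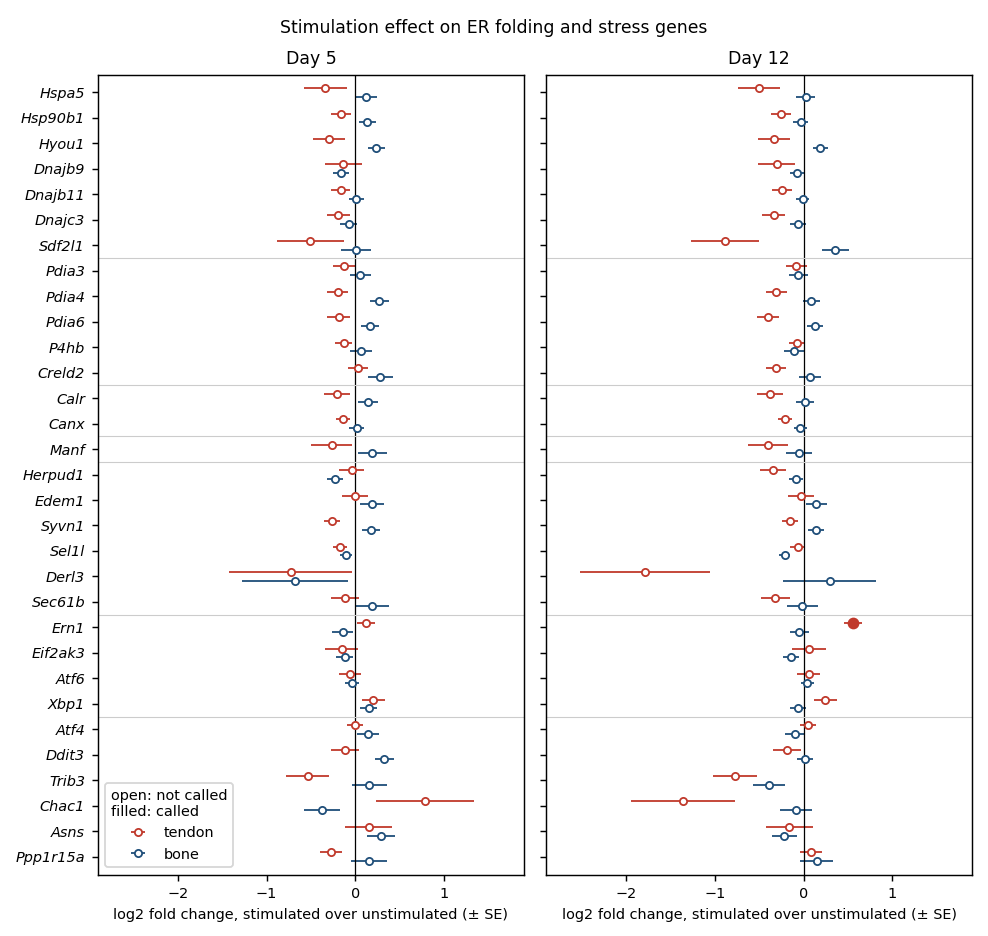
Log2 fold change ± SE of each gene, stimulated over unstimulated, at day 5 and day 12, with tendon and bone as separate points; a filled point marks an adjusted p under 0.05. At day 12 the 15 folding genes of tendon lie at or left of -0.08 while those of bone lie between -0.10 and 0.36, and Ern1 in tendon is the one filled point.

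The degradation genes of tendon at day 12 were less uniform. Herpud1 had 119, 105 and 80.7 CPM in stimulated and 129, 130.5 and 128 CPM in unstimulated libraries, without overlap. Derl3 was counted at 0.709, 0.0725 and 0.123 CPM in stimulated and 0.542, 1.23 and 1.11 CPM in unstimulated libraries, levels that rest on few counts. Sec61b had 13.6, 15.3 and 10.9 CPM in stimulated and 15.7, 17 and 16.8 CPM in unstimulated libraries. Syvn1, which encodes the ubiquitin ligase HRD1, Sel1l and Edem1 overlapped between the groups, with 31.2, 27.7 and 25.9 CPM of Syvn1 in stimulated and 32.1, 30.1 and 31.8 CPM in unstimulated libraries. Of the other sensors, Eif2ak3 had 7.43, 9.87 and 9.52 CPM in stimulated and 7.95, 8.14 and 9.69 CPM in unstimulated libraries and Atf6 had 66.5, 44 and 59.9 CPM in stimulated and 53.6, 51.2 and 58.6 CPM in unstimulated libraries, which overlapped as well.

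In the ATF4 and CHOP branch the libraries were ordered otherwise. Its 6 members had a median log2 fold change of -0.17, 4 below 0, and stimulated replicate 1 was the highest of its group in 2 of them. Atf4 had 109, 104 and 96 CPM in stimulated and 106, 94.2 and 97 CPM in unstimulated tendon, and Ppp1r15a had 13.9, 13.2 and 12.3 CPM in stimulated and 12, 13.9 and 11.2 CPM in unstimulated libraries, so that both genes overlapped. Ddit3 had 13.6, 15.4 and 9.86 CPM in stimulated and 14.7, 13.6 and 15.9 CPM in unstimulated libraries, and Asns had 4.73, 4.13 and 5.1 CPM in stimulated and 4.37, 5.81 and 5.44 CPM in unstimulated libraries. Trib3, induced by ATF4 and CHOP, had 1.89, 2.07 and 1.29 CPM in stimulated and 2.56, 2.8 and 3.55 CPM in unstimulated libraries, without overlap (log2 fold change -0.77 ± 0.25, adjusted p = 0.218). Chac1, a glutathione-degrading enzyme of the same branch, had 2.41, 7.94 and 1.29 CPM in stimulated and 7.01, 10.1 and 12.8 CPM in unstimulated libraries. Without stimulated replicate 2, its highest value in that group, Chac1 was called lower (log2 fold change -2.48, adjusted p = 0.0344). Part of the reads of Ddit3 cannot be assigned with certainty, since its locus overlaps Mars and a second annotated copy listed at 0, and whether counting used strand is not stated. The same holds for Manf, which overlaps Rbm15b and Dcaf1, for Syvn1, which overlaps Mrpl49, and for Hsp90b1, which overlaps 1810014B01Rik.

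**Figure D3:**
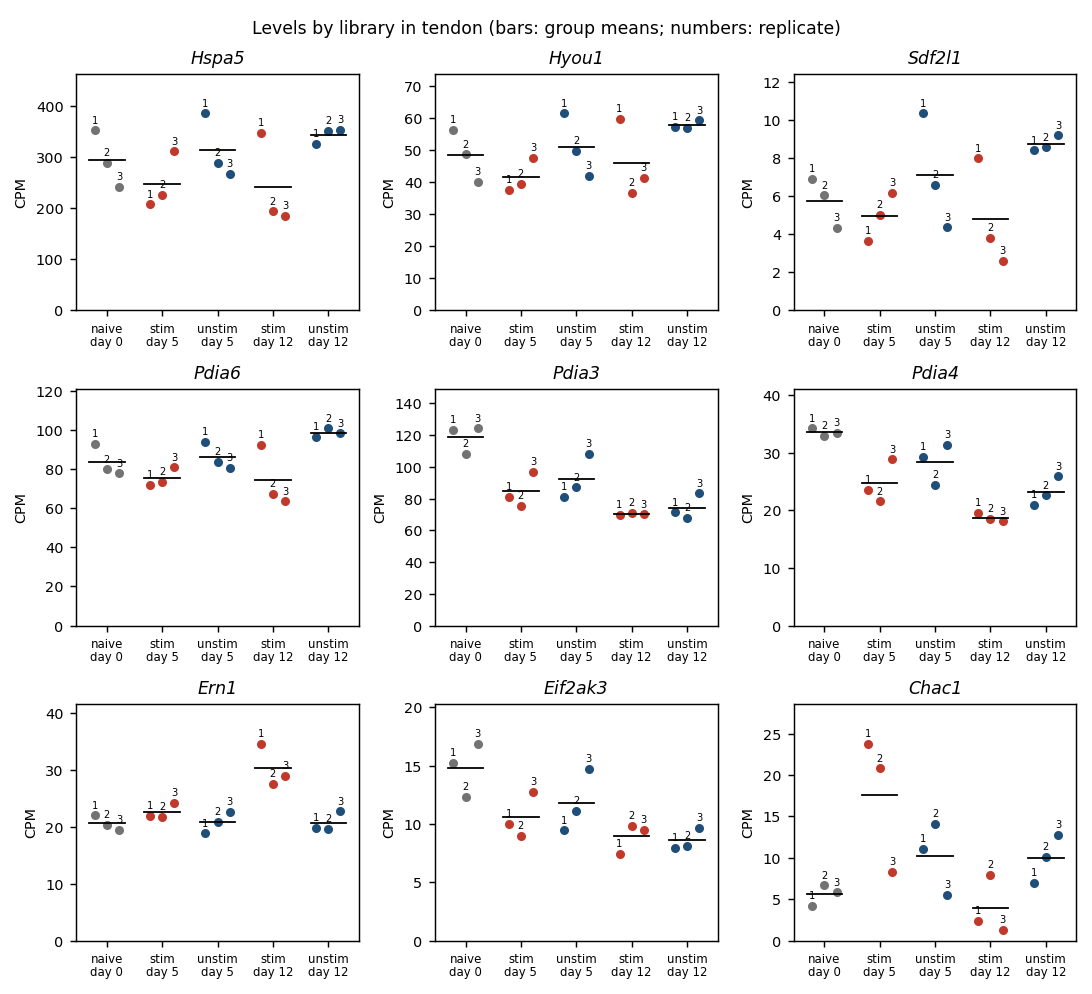
Level in CPM of 9 genes in each tendon library, by group from naive at day 0 through day 5 to day 12, with replicate numbers beside the points and bars at the group means. In the day 12 stimulated group Hspa5, Hyou1 and Sdf2l1 show replicate 1 near the unstimulated libraries and replicates 2 and 3 below them, and Ern1 shows all 3 replicates above the other groups.

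At day 5, 0 of the 31 members were called between stimulated and unstimulated tendon by edgeR, and 0 by DESeq2. Across all genes edgeR called 0.0585% and DESeq2 0.787%, and 3 members had an unadjusted p under 0.05, against 8.28% of all genes. Of the 15 folding genes 14 lay below 0, with a median of -0.19. Over all 17105 genes 8671 lay below 0, with a median of -0.003. Hspa5 had 208, 225 and 311 CPM in stimulated and 385, 288 and 267 CPM in unstimulated libraries, and Sdf2l1 had 3.66, 5.03 and 6.19 CPM in stimulated and 10.4, 6.6 and 4.36 CPM in unstimulated libraries, so the groups overlapped. The smallest p belonged to Syvn1, at 23.4, 26.7 and 27 CPM in stimulated and 33.8, 29.6 and 29.2 CPM in unstimulated libraries (log2 fold change -0.26 ± 0.09, adjusted p = 0.446). Ppp1r15a (-0.28 ± 0.12, adjusted p = 0.586) and Trib3 (-0.54 ± 0.24, adjusted p = 0.591) came next on the log2 scale. Chac1 had 23.8, 20.8 and 8.32 CPM in stimulated and 11.1, 14.1 and 5.56 CPM in unstimulated libraries. In naive tendon it had 4.23, 6.66 and 5.83 CPM, and the high values were those of stimulated replicates 1 and 2. Cell markers moved as well, with 0 called. Below 0 lay 4 of 4 cartilage (median -2.39), 7 of 7 osteoblast (-0.85) and 3 of 3 Schwann cell genes (-4.19). Above 0 lay 6 of 8 tendon fibroblast (median 0.145) and 5 of 5 tested neutrophil genes (0.764). Their part in the members' values was not tested.

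The comparisons with naive tendon ask how the tissue changed with the days of the experiment, and each group is set against the same 3 naive libraries, so that their values are not independent. At day 12, 4 members were called lower and 0 higher in unstimulated than in naive tendon, where 10.6% of all genes were called lower and 8.16% higher. In stimulated tendon 8 were called lower and 1 higher than in naive, where 12.5% of all genes were called lower and 11.9% higher. The 4 genes that fell in unstimulated tendon were Pdia3, Pdia4, Eif2ak3 and Edem1. As a count out of 31 members, 4 is near the share of all genes. It is therefore not read as a result about the members as a set.

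Pdia3 had 69.6, 70.9 and 70.0 CPM in stimulated, 71.3, 68 and 83.2 CPM in unstimulated and 123, 108 and 124 CPM in naive tendon. It fell in the stimulated group (log2 fold change -0.76 ± 0.12, adjusted p = 0.0028) and in the unstimulated group (log2 fold change -0.68 ± 0.12, adjusted p = 0.0096). Pdia4, another multidomain disulfide isomerase, had 19.6, 18.5 and 18.1 CPM in stimulated, 20.9, 22.6 and 25.9 CPM in unstimulated and 34.3, 32.9 and 33.5 CPM in naive tendon. It fell in both groups (log2 fold change -0.84 ± 0.12, adjusted p = 0.00145 in stimulated, and -0.54 ± 0.12, adjusted p = 0.0139 in unstimulated). In both genes no day 12 library reached the naive range.

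The sensor gene Eif2ak3 had 7.43, 9.87 and 9.52 CPM in stimulated, 7.95, 8.14 and 9.69 CPM in unstimulated and 15.2, 12.3 and 16.9 CPM in naive tendon. It fell in the stimulated group (log2 fold change -0.73 ± 0.18, adjusted p = 0.0152) and in the unstimulated group (log2 fold change -0.79 ± 0.18, adjusted p = 0.017). Edem1 had 14.7, 11.8 and 14.4 CPM in stimulated, 14.4, 12.4 and 14.7 CPM in unstimulated and 19.9, 17.1 and 21 CPM in naive tendon, and fell in both (-0.51 ± 0.14, adjusted p = 0.0245 in stimulated, and -0.48 ± 0.14, adjusted p = 0.0366 in unstimulated, on the log2 scale). Leaving out unstimulated replicate 2 ended the 4 calls of the unstimulated group (adjusted p = 0.0625 for Pdia3, 0.0725 for Pdia4, 0.0794 for Eif2ak3 and 0.15 for Edem1). Leaving out naive replicate 3 ended 3 of them (0.0588 for Pdia4, 0.0735 for Eif2ak3 and 0.134 for Edem1). Leaving out unstimulated replicate 1 ended those of Eif2ak3 (0.0545) and Edem1 (0.0744). Edem1 also lost its call without unstimulated replicate 3 (0.0608) or naive replicate 1 (0.0782).

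In stimulated tendon at day 12 the further calls against naive were Creld2, Canx, Hsp90b1 and Dnajc3, which fell, and Ern1, which rose. Creld2 had 6.43, 7.04 and 6.97 CPM in stimulated and 10.5, 10.7 and 10.8 CPM in naive tendon (log2 fold change -0.64 ± 0.11, adjusted p = 0.00379). Canx had 127, 106 and 109 CPM in stimulated and 147, 143 and 142 CPM in naive tendon (log2 fold change -0.33 ± 0.08, adjusted p = 0.0122). Hsp90b1 (-0.38 ± 0.11, adjusted p = 0.0294) and Dnajc3 (-0.39 ± 0.13, adjusted p = 0.0479) fell by less than Creld2, on the log2 scale. Ern1 had 22, 20.3 and 19.5 CPM in naive tendon, so its level in stimulated tendon was above naive by 0.56 ± 0.10, adjusted p = 0.00415. Pdia4, Pdia3, Creld2, Canx and Ern1 stayed called without any 1 library. Leaving out single naive or stimulated libraries ended the calls of Dnajc3 (naive replicate 1, 2 or 3 or stimulated replicate 3, adjusted p = 0.164, 0.0608, 0.0846 and 0.161) and Hsp90b1 (naive replicate 1, 2 or 3 or stimulated replicate 2 or 3, 0.0923, 0.0518, 0.068, 0.0753 and 0.091). The same held for Edem1 (naive replicate 1 or 3 or stimulated replicate 2, adjusted p = 0.0597, 0.0948 and 0.065) and Eif2ak3 (naive replicate 3 or stimulated replicate 1, 0.0682 and 0.0657). In a fit of only these 6 libraries the calls of Dnajc3, Hsp90b1 and Canx were lost (adjusted p = 0.105, 0.0704 and 0.0512), and that of Dnajc3 was also lost with DESeq2's size factors (0.0544). Without stimulated replicate 1, Pdia6 and Manf were called lower as well (adjusted p = 0.0356 for Pdia6 and 0.0421 for Manf). Replicate 1 was the highest stimulated library in both genes, so leaving it out lowered their group means.

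Other chaperones of the stress response were not called in unstimulated tendon at day 12. Hspa5 had 325, 351 and 354 CPM there and 353, 288 and 242 CPM in naive tendon, and Hyou1 had 57.2, 56.9 and 59.3 CPM in unstimulated and 56.3, 48.7 and 40.2 CPM in naive tendon. Sdf2l1 had 8.42, 8.57 and 9.2 CPM in unstimulated and 6.92, 6.04 and 4.36 CPM in naive tendon. In Hyou1 and Sdf2l1 every unstimulated library lay above every naive one. Of the 31 members 7 lay wholly above naive and 6 wholly below it, and the share of all genes was not counted. These counts are therefore not read as a result about the members. In a fit of the 6 libraries alone Sdf2l1 was called higher (adjusted p = 0.0314), as were Herpud1 (0.0105) and Chac1 (0.0435), with Creld2 called lower (0.0247).

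At day 5, 0 members were called against naive tendon in the unstimulated group and 0 in the stimulated group by edgeR. Across all genes edgeR called 0.0351% for the unstimulated and 2.29% for the stimulated group. By DESeq2 2 members, Pdia3 and Pdia4, were called lower in the stimulated group (6.21% of all genes) and 0 in the unstimulated group (0.642%). At an unadjusted p under 0.05 stood 11 members in the stimulated group (19.6% of all genes) and 3 in the unstimulated group (10.9%). Pdia3 had 81.2, 75.2 and 97 CPM in stimulated and 81.2, 87.1 and 108 CPM in unstimulated tendon at day 5. Its log2 fold change against naive was -0.49 ± 0.12, adjusted p = 0.0525 in the stimulated and -0.36 ± 0.12, adjusted p = 0.374 in the unstimulated group. Pdia4 (-0.44 ± 0.12, adjusted p = 0.0647) and Syvn1 (-0.27 ± 0.09, adjusted p = 0.134) had the next smallest p in the stimulated group, and Creld2 (-0.32 ± 0.11, adjusted p = 0.395) and Edem1 (-0.32 ± 0.14, adjusted p = 0.447) in the unstimulated group. Without stimulated replicate 3 at day 5, Pdia3 and Pdia4 were called lower in the stimulated group (adjusted p = 0.0366 and 0.0306).

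The make-up of the tendon samples moved with these comparisons. The 8 tendon fibroblast genes took 1.28 to 2.81% of counts in naive tendon. At day 5 they took 0.488 to 1.14% in stimulated and 0.481 to 1.38% in unstimulated tendon, and at day 12 they took 0.226 to 0.671% in stimulated and 0.310 to 0.689% in unstimulated tendon. Muscle fibre genes took 10.8 to 14.6% in naive tendon, 12.8 to 14.4% in stimulated and 11.9 to 18.1% in unstimulated tendon at day 5, and 16.2 to 18.4% in stimulated and 17.6 to 19.0% in unstimulated tendon at day 12. The 15 folding genes took 0.173 to 0.185% in naive tendon, 0.131 to 0.172% in stimulated and 0.152 to 0.168% in unstimulated tendon at day 5, and 0.111 to 0.141% in stimulated and 0.146 to 0.162% in unstimulated tendon at day 12. Genes of other cell types also fell against naive tendon at day 12. In unstimulated tendon 5 of 7 osteoblast, 3 of 4 osteoclast and 3 of 4 cartilage genes tested were called lower. So were 5 of 5 erythroid and 3 of 4 macrophage genes. In stimulated tendon these counts were 3, 3, 3, 5 and 2, and in both groups 0 of these genes were called higher. Col1a1 is in both the osteoblast and the tendon fibroblast list. The part of these cell types in the changes from naive tendon was not tested.

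**Figure D4:**
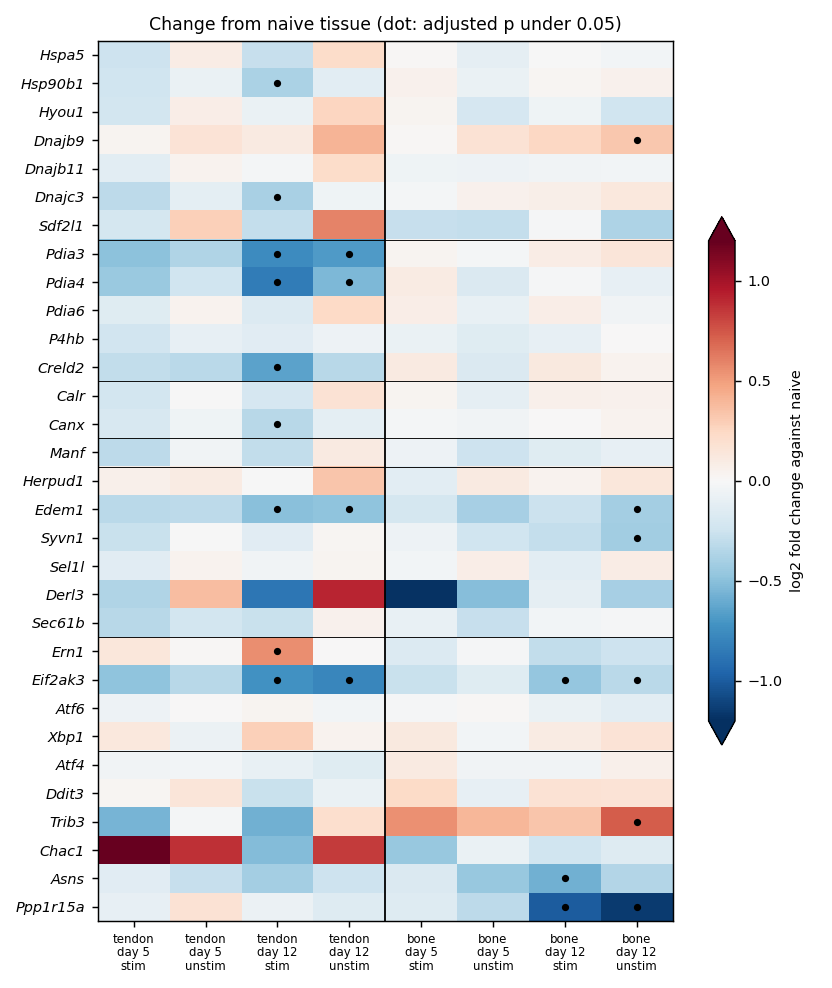
Log2 fold change of each gene against naive tissue for the 8 later groups, stimulated left of unstimulated within each day, tendon on the left and bone on the right; a dot marks an adjusted p under 0.05. In tendon Pdia3, Pdia4, Edem1 and Eif2ak3 carry dots in both day 12 groups, and in bone Ppp1r15a and Eif2ak3 do. Values beyond the ends of the colour scale take its end colour.

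In bone, no member was called between stimulated and unstimulated samples by edgeR. At day 5, 0 of 31 were called, as were 0% of all genes, and DESeq2 called 0 members and 0.236% of all genes. Unadjusted p was under 0.05 in 4 members, against 8.06% of all genes. Ddit3 had 19.8, 20.9 and 19.8 CPM in stimulated bone and 16.1 and 16 CPM in unstimulated bone (log2 fold change 0.33 ± 0.10, adjusted p = 0.53), and all stimulated values were higher. Of the 31 members 12 were wholly higher and 7 wholly lower in stimulated bone, and the share of all genes was not counted. Hyou1 (0.24 ± 0.09, adjusted p = 0.557) and Herpud1 (-0.23 ± 0.09, adjusted p = 0.56) came next on the log2 scale. Hspa5 had 434, 414 and 429.6 CPM in stimulated and 382 and 399.8 CPM in unstimulated bone.

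At day 12, edgeR called 0 members and 0.0371% of all genes in bone, and unadjusted p was under 0.05 in 4 members, against 14.6% of all genes. DESeq2 called 1 member, Sel1l, lower, and 2.81% of all genes. Sel1l had 83, 91 and 83.7 CPM in stimulated and 101, 99.8 and 98.4 CPM in unstimulated bone, without overlap (log2 fold change -0.21 ± 0.06, adjusted p = 0.194 by edgeR). Sdf2l1 had 20.3, 13.3 and 16.2 CPM in stimulated and 12.2, 13.8 and 12.7 CPM in unstimulated bone (log2 fold change 0.36 ± 0.15, adjusted p = 0.313), and Hyou1 followed (0.19 ± 0.08, adjusted p = 0.323). Of the 15 folding genes 8 lay below 0, and their median was -0.01. Ern1 had 35.1, 34 and 34.9 CPM in stimulated and 30.5, 42.4 and 34.5 CPM in unstimulated bone, which overlapped. Hspa5 had 499, 379 and 383 CPM in stimulated and 445, 399 and 397 CPM in unstimulated bone, and overlapped as well. No marrow gene of the lists was called in this comparison, while 8 of 8 B and plasma cell genes lay above 0 (median 1.10, 8 at an unadjusted p under 0.05), 8 of 8 neutrophil genes (median 0.98, 4 under 0.05) and 6 of 6 erythroid genes (median 1.03, 0 under 0.05). Their part in the members' values was not tested.

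Against naive bone, the gene that changed most at day 12 was Ppp1r15a. It had 41.3, 33.3 and 40.2 CPM in stimulated, 32.1, 30.3 and 41.4 CPM in unstimulated and 62.6, 69.1 and 97.7 CPM in naive bone, and no day 12 library reached the naive range. Ppp1r15a fell in the stimulated group (log2 fold change -1.0 ± 0.18, adjusted p = 0.0146) and in the unstimulated group (log2 fold change -1.14 ± 0.18, adjusted p = 0.00236). At day 5 it was at 55.5, 78.7 and 71.4 CPM in stimulated and 64 and 58.9 CPM in unstimulated bone. The other genes of the branch with a call were Trib3 and Asns. Trib3 had 4.77, 4.02 and 2.99 CPM in stimulated, 5.13, 5.08 and 5.2 CPM in unstimulated and 3.41, 3 and 2.91 CPM in naive bone, and rose in the unstimulated group (log2 fold change 0.72 ± 0.18, adjusted p = 0.0152). Asns had 20.6, 17.1 and 21.2 CPM in stimulated, 23.6, 20.4 and 24.6 CPM in unstimulated and 25, 28.8 and 33.9 CPM in naive bone, and fell in the stimulated group (log2 fold change -0.57 ± 0.14, adjusted p = 0.0427). Atf4 itself had 189, 170.2 and 161 CPM in stimulated, 219.7, 159 and 178 CPM in unstimulated and 167, 178 and 189 CPM in naive bone, which overlapped.

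Eif2ak3, which encodes the kinase upstream of ATF4, had 37.9, 40.4 and 34.5 CPM in stimulated, 42, 44.7 and 37.5 CPM in unstimulated and 47, 52.2 and 56.1 CPM in naive bone. It fell in the stimulated group (log2 fold change -0.46 ± 0.09, adjusted p = 0.0188) and in the unstimulated group (log2 fold change -0.32 ± 0.09, adjusted p = 0.0245). In the unstimulated group Syvn1 fell as well, at 50.7, 59.9 and 58.4 CPM against 75.7, 76.8 and 73.9 CPM in naive bone (log2 fold change -0.42 ± 0.09, adjusted p = 0.00822), and so did Edem1, at 67.9, 76.6 and 65.8 CPM against 82.1, 96.6 and 99.6 CPM in naive bone (log2 fold change -0.40 ± 0.12, adjusted p = 0.0301). Dnajb9 rose, at 44.2, 37 and 40.1 CPM in unstimulated and 32.4, 33.5 and 31 CPM in naive bone (log2 fold change 0.32 ± 0.08, adjusted p = 0.0147). These made 2 higher and 4 lower calls in unstimulated bone, where 10.1% of all genes were called higher and 11.7% lower. Out of 31 members these counts are near the shares of all genes, and they are not read as a result about the set. In stimulated bone there were 0 higher and 3 lower calls, where 2.08% of all genes were called higher and 2.45% lower.

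Naive bone replicate 3, which stood apart, held the highest naive values of Ppp1r15a, Asns, Edem1 and Eif2ak3. Without it the 3 calls of stimulated bone were lost (adjusted p = 0.052 for Ppp1r15a, 0.0873 for Eif2ak3 and 0.171 for Asns), as were 2 of the unstimulated group (0.109 for Eif2ak3 and 0.0982 for Edem1). Without naive replicate 2 the calls lost were Eif2ak3 and Asns in the stimulated group (0.0814 and 0.125) and Eif2ak3, Edem1 and Trib3 in the unstimulated group (0.0768, 0.103 and 0.0598). Without stimulated replicate 2 those of Ppp1r15a (0.0658) and Asns (0.15) were lost, without stimulated replicate 1 that of Asns (0.0727), and in the unstimulated group those of Eif2ak3 and Edem1 without replicate 1 (0.0625 and 0.0833) or replicate 3 (0.113 and 0.0983). Ppp1r15a, Syvn1 and Dnajb9 in the unstimulated group stayed called without any 1 library. In a fit of only the libraries compared, the 3 calls of the stimulated group were lost (0.119 for Ppp1r15a, 0.13 for Eif2ak3 and 0.141 for Asns), as was Eif2ak3 in the unstimulated group (0.0838).

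Markers of several cell types were called in these comparisons with naive bone. Every gene of the marrow, osteoblast, osteoclast and tendon fibroblast lists given here was detected in every bone library. Erythroid genes took 0.653 to 2.01% of counts in stimulated, 0.370 to 0.809% in unstimulated and 1.74 to 4.99% in naive bone, and 6 of 6 were called lower in unstimulated bone. Neutrophil genes took 0.295 to 0.644% in stimulated, 0.179 to 0.360% in unstimulated and 0.419 to 0.962% in naive bone, with 6 of 8 called lower in unstimulated bone. B and plasma cell genes took 0.0421 to 0.11% in stimulated, 0.0249 to 0.0528% in unstimulated and 0.0882 to 0.115% in naive bone, with 7 of 8 called lower in unstimulated bone. None of these 3 marrow lists held a call in stimulated against naive bone. Osteoblast genes took 2.54 to 3.26% in stimulated, 3.21 to 3.65% in unstimulated and 4.97 to 5.41% in naive bone, with 4 of 7 called lower in stimulated and 3 of 7 in unstimulated bone. Osteoclast genes took 0.308 to 0.544% in stimulated, 0.336 to 0.398% in unstimulated and 0.520 to 0.670% in naive bone, with 1 of 5 called lower in stimulated and 3 of 5 in unstimulated bone. Of the 8 tendon fibroblast genes, 2 were called higher and 1 lower in stimulated bone and 6 higher and 1 lower in unstimulated bone, while their summed share was 2.85 to 4.46% in stimulated, 3.83 to 4.20% in unstimulated and 4.98 to 5.31% in naive bone. Col1a1 is in both the osteoblast and the tendon fibroblast list, so the shares of these lists are not independent. Muscle fibre genes took 1.125 to 3.67% in stimulated, 0.80 to 1.60% in unstimulated and 0.0147 to 1.65% in naive bone. Of these 11 genes 11 lay above 0 in stimulated and 10 in unstimulated bone, with 0 called. Schwann cell genes took 0.0117 to 0.0371% in stimulated, 0.0278 to 0.129% in unstimulated and 0.00471 to 0.0806% in naive bone, with 0 called. The part of these cell types in the changes of the members from naive bone was not tested.

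**Figure D5:**
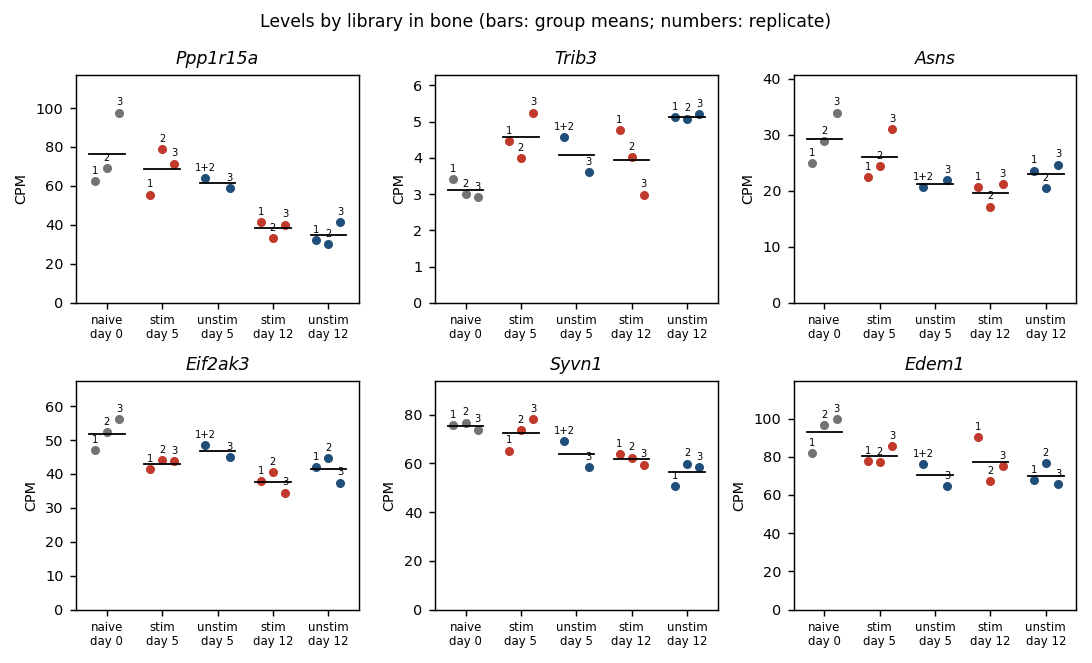
Level in CPM of 6 genes in each bone library, by group from naive at day 0 through day 5 to day 12, with replicate numbers beside the points and bars at the group means; 1+2 is the summed pair. Ppp1r15a at day 12 lies between 30.3 and 41.4 CPM, below all naive and day 5 libraries, and naive replicate 3 is the highest of its group for Ppp1r15a, Asns, Eif2ak3 and Edem1.

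At day 5, 0 members were called against naive bone in either group by edgeR, and 0 by DESeq2. Across all genes edgeR called 0.228% for the stimulated and 0.435% for the unstimulated group, and DESeq2 3.86% for the stimulated and 3.16% for the unstimulated group. Unadjusted p was under 0.05 in 4 members of the stimulated comparison (16.3% of all genes) and 3 of the unstimulated one (14.7%). In the stimulated group Trib3 (0.55 ± 0.18, adjusted p = 0.182), Eif2ak3 (-0.27 ± 0.09, adjusted p = 0.19) and Ddit3 (0.23 ± 0.09, adjusted p = 0.251) had the smallest p, on the log2 scale. In the unstimulated group these were Edem1 (-0.40 ± 0.13, adjusted p = 0.217), Asns (-0.46 ± 0.16, adjusted p = 0.227) and Syvn1 (-0.24 ± 0.10, adjusted p = 0.31).

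Whether stimulation acted differently between tissues or days was tested as a difference of effects. At day 12 the effect in tendon minus that in bone was below 0 in all 15 folding genes, with a median of -0.40, against -0.03 over all genes. Of the 31 members 11 had an unadjusted p under 0.05, against 10.9% of all genes, but edgeR called 0, against 0.202% of all genes. DESeq2 called 1 member, Ern1, and 1.23% of all genes. Pdia6 (-0.57 ± 0.15, adjusted p = 0.13), Ern1 (0.55 ± 0.15, adjusted p = 0.13) and Sdf2l1 (-1.29 ± 0.43, adjusted p = 0.235) had the smallest p, on the log2 scale. Without stimulated tendon replicate 1, Pdia6 and Sdf2l1 were called (adjusted p = 0.017 and 0.0436). Without stimulated tendon replicate 2, Ern1 and Chac1 were called (0.0439 and 0.0276). In each case the library left out held the stimulated tendon value nearest to unstimulated tendon.

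At day 5 the difference between tissues was called in 0 members and 0% of all genes by edgeR, and in 0 members and 0.234% of all genes by DESeq2. Unadjusted p was under 0.05 in 5 members, against 6.3% of all genes. Syvn1 (-0.41 ± 0.13, adjusted p = 0.536), Pdia4 (-0.44 ± 0.16, adjusted p = 0.624) and Hyou1 (-0.50 ± 0.23, adjusted p = 0.762) had the smallest p. The effect at day 12 minus that at day 5 was called in 0 members and 0% of all genes in tendon, and in 0 members and 0% in bone, by edgeR. DESeq2 called 0 members in both, and 0.079% of all genes in tendon and 0.339% in bone. Unadjusted p was under 0.05 in 2 members in tendon, against 4.09% of all genes, and in 2 in bone, against 10.6%. In tendon Ern1 (0.43 ± 0.14, adjusted p = 1), Chac1 (-2.15 ± 0.81, adjusted p = 1) and Creld2 (-0.34 ± 0.16, adjusted p = 1) had the smallest p, and in bone Asns (-0.51 ± 0.21, adjusted p = 0.462), Ddit3 (-0.31 ± 0.14, adjusted p = 0.463) and Trib3 (-0.54 ± 0.27, adjusted p = 0.484). A p above the threshold does not show that the effects were equal.

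The 9 genes with the ER stress response element shown above all had a log2 fold change below 0 in stimulated against unstimulated tendon at day 12, with a median of -0.34, and 7 had an unadjusted p under 0.05. Of the 19 members with a promoter but without the element, 14 lay below 0, with a median of -0.16, and 7 had an unadjusted p under 0.05. Over all 17105 genes of that tendon comparison 8346 lay below 0, and 11.2% had an unadjusted p under 0.05. In bone at day 12 the genes with the element had a median of 0.02, with 3 of 9 below 0. Those with a promoter but without the element had a median of -0.06 there, with 14 of 19 below 0. The element lies mostly in folding genes, so that it cannot be told apart from the role of the genes here.

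Related genes outside the 31 were counted from 3 further lists. Of 48 other tested genes of ER folding and degradation, 0 were called between stimulated and unstimulated tendon at day 12, with 40 below 0 and a median of -0.09, and the smallest p were those of Selenos (-0.57 ± 0.12, adjusted p = 0.0751), a selenoprotein of ER-associated degradation, Fkbp11 (-1.17 ± 0.27, adjusted p = 0.0918), a prolyl isomerase, and Txndc11 (0.30 ± 0.11, adjusted p = 0.33). Against naive tendon at day 12, 3 of them rose and 15 fell in the stimulated group, and 3 rose and 9 fell in the unstimulated group. Tram1, which assists translocation, fell in the stimulated (log2 fold change -0.62 ± 0.08, adjusted p = 0.000826) and in the unstimulated group (-0.59 ± 0.08, adjusted p = 0.00337). Sec61a1, the channel subunit of the translocon, fell likewise (-0.83 ± 0.10, adjusted p = 0.000838 in stimulated, and -0.74 ± 0.10, adjusted p = 0.00471 in unstimulated).

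Of 35 other tested targets of ATF4, 1 was called in stimulated against unstimulated tendon at day 12. This was Atf3, a stress-induced factor also raised by other pathways, with 53.7, 161 and 176 CPM in stimulated and 8.49, 9.55 and 27.4 CPM in unstimulated libraries (log2 fold change 3.11 ± 0.53, adjusted p = 0.0301). Sesn2 (-0.76 ± 0.15, adjusted p = 0.0554) and Vldlr (0.50 ± 0.13, adjusted p = 0.111) followed and did not pass, with 23 of the 35 below 0. Against naive tendon at day 12 the list held 3 higher and 10 lower calls in the stimulated group and 3 higher and 7 lower in the unstimulated group. Aldh18a1, the first enzyme of proline synthesis from glutamate, fell in both (-1.36 ± 0.18, adjusted p = 0.000999 in stimulated, and -0.99 ± 0.17, adjusted p = 0.00914 in unstimulated). In bone at day 12, the list held 0 higher and 5 lower calls in the stimulated group and 3 higher and 9 lower in the unstimulated group, against naive. The amino acid transporter gene Slc7a1 fell in both (-0.63 ± 0.07, adjusted p = 0.00219 in stimulated, and -0.47 ± 0.07, adjusted p = 0.00216 in unstimulated), as did the alanyl-tRNA synthetase gene Aars (-0.33 ± 0.07, adjusted p = 0.0203 in stimulated, and -0.37 ± 0.07, adjusted p = 0.0035 in unstimulated).

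Of 23 tested genes of collagen chaperones, hydroxylation and export, 0 were called between stimulated and unstimulated tendon at day 12, with 17 below 0. At day 5, 0 were called, with all 23 below 0. Over all 17105 genes 8346 lay below 0 at day 12 and 8671 at day 5. Against naive tendon at day 12, 2 rose and 14 fell in the stimulated group, and 1 rose and 15 fell in the unstimulated group. Fkbp14, an ER prolyl isomerase, had 8.32, 9.97 and 11.6 CPM in stimulated tendon at day 12 and 19, 25.7 and 25.9 CPM in naive tendon (log2 fold change -1.23 ± 0.21, adjusted p = 0.00337), and Fkbp10 fell in unstimulated tendon at day 12 (-1.50 ± 0.30, adjusted p = 0.0124). At day 5, 5 genes of the list fell in stimulated tendon and 0 in unstimulated tendon, against naive. The share of tendon fibroblast genes fell over the same groups, as given above, and its part was not tested.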

How the data were processed

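Gene counts were analysed for 30 RNA-seq libraries, 15 of mouse tendon and 15 of mouse bone. RNA was isolated with a PureLink kit and sequenced after poly-A selection, per the labels' protocols. The tools cutadapt 2.3, FastQC 0.11.8, MultiQC 1.7, STAR 2.7.8a and RSEM 1.3.3 and the build GRCm38 are named in the submitters' processing notes. Neither annotation nor strand setting is given in the sources used here. The deposited values are expected counts from RSEM for each gene; 0 of them were not whole, so that rounding changed none. Besides 55421 gene rows, 5 rows name reporter constructs and stayed out of library sizes and tests. The 31 names matched 32 rows, of which a second Ddit3 row holds no counts. Gene lengths came from GENCODE M21, in which 99.5% of the IDs were found; the overlap and promoter checks used M21 and RefSeq.

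The test was edgeR's quasi-likelihood test (edgeR 4.0.16, R 4.3.3), fitted robustly after TMM scaling and after filterByExpr had removed low genes (min.count 10, min.total.count 15). P-values were adjusted by Benjamini-Hochberg over every gene of a fit, and calls were made under 0.05. The fits used 15 tendon libraries (17105 genes), 14 bone libraries after summing the close pair (18863 genes), or all 29 (19791 genes) for comparisons of tissues. All 31 members passed the filter in each. Fold changes carry their standard error after ±. Alternatives were DESeq2 1.42.0, DESeq2 size factors within edgeR, every gene kept, a block by replicate number, only the libraries compared, the close pair kept apart, and leaving out each library; a lone or reduced group is then assumed to vary like the others. The code was tested on simulated data.

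Every member is named; fold changes with p are given for called members and, where fewer than 3 were called, for the 3 with the smallest p. Where more than 12 were called, the 6 with the smallest adjusted p in each direction are given. Of other lists, at most 3 genes per comparison are named, by smallest adjusted p. The members, lists and tests were chosen with earlier results of these data known.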

Additional observations from a re-analysis of the deposited data

How the results depend on the processing

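Over the alternatives to 17 counts of called members, 185 of 212 counts stayed within 1.5 times the value reported and 27 did not. Many comparisons had a count of 0, and a count of 0 that stayed 0 was taken as unchanged. For the members named with a test, 766 of 837 values kept their direction and side of the threshold, 59 lost the call, 12 gained one and 0 turned their direction. The 837 values pool members with and without a call, and members without one had no call to lose. The share that kept its side is therefore not a measure of how firm the calls were. Of the 59 lost calls, 47 came from leaving out 1 library, a setting with fewer samples. In tendon at day 12, stimulated against unstimulated, the count of 1 became 0 with the replicate block (adjusted p = 0.0561 for Ern1, which ran from 0.000518 to 0.252 over its alternatives) and 0 in a fit of only the libraries compared, and ran from 0 to 2 without single libraries. Unstimulated against naive tendon at day 12, the count of 4 became 8 in a fit of only the libraries compared and ran from 0 to 4 without single libraries. Stimulated against naive tendon at day 5, the count of 0 became 2 with DESeq2, 1 without a count filter and 2 with the replicate block, and ran from 0 to 2 without single libraries. Stimulated against naive tendon at day 12, the count of 9 ran from 5 to 10 without single libraries. In bone, the count of 0 for stimulated against unstimulated at day 12 became 1 with DESeq2. The count of 3 for stimulated against naive bone at day 12 became 5 with DESeq2 and 0 in a fit of only the libraries compared, and ran from 0 to 3 without single libraries. The count of 6 for unstimulated against naive bone ran from 3 to 7 without single libraries. For the difference of tendon and bone at day 12, the count of 0 became 1 with DESeq2 and ran from 0 to 2 without single libraries. Apart from fits with fewer samples or genes, the cause of these differences was not tested. The labels do not say what a replicate number stands for. Deviations of same-numbered samples from their group means correlated from -0.39 to 0.47 within a tissue and from -0.08 to 0.13 between tissues, with no set of 3 pairs all above 0.1, so the block is given only as a check. Every sample correlated best with its own number in 1 of these sets, unstimulated tendon with bone at day 5. With the block the count of 21 for naive tendon against naive bone became 20, where Ddit3 (adjusted p = 0.0535) and Ern1 (0.0549) lost and Pdia6 (0.0302) gained a call, and Dnajc3 lost its call in stimulated against naive tendon at day 12 (0.053). Asns (0.035) and Hyou1 (0.047) gained one in unstimulated against naive bone at day 12. The block changed no other count by over 1.5 times. The fit of both tissues without single naive libraries gave 20 to 22 calls. Levels under about 1 CPM, such as those of Derl3, rest on few counts.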
